A study of Mus musculus with 62 samples.

Results

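The cytosolic ribosome is built from a small 40S and a large 60S subunit, and the genes described here encode their protein components. They were selected on their names and on their level, from a table of raw read counts for 37620 mouse genes: the symbol is Rpl or Rps followed by a number, a stalk letter (Rplp) or an a (Rpsa). Of 81 matching rows, 2 were pseudogenes and 4 protein-coding rows had a mean below 10 CPM (each count divided by the sum of its library, then rescaled) over all 62 libraries, which left 75 genes, 31 of the 40S and 44 of the 60S subunit. The mean level over all libraries thus chose the genes. Just above that limit lay Rps12 with a mean of 14.8 CPM, Rpl36a with 17 and Rpl31 with 20.5, and just below it lay Rpl3l with 4.05, the pseudogene Rps4l with 3.90 and Rpl23a with 3.22. The rows that the table names Rpl24 and Rps3a carry the identifiers of Zbtb11 and Rps3a1, which lie outside the naming pattern, and were not included.

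The libraries were of mouse cells. ER-Hoxb8 cells are bone marrow progenitors kept in a proliferating state by an estrogen-regulated form of the transcription factor Hoxb8, and each clone was sequenced in 2 states. The labels name these as granulocyte-monocyte progenitors (24 libraries) and monocytic cells (24 libraries), with one library of each state per clone, from clones 1 to 13 and 15 to 25, and give RPMI medium with serum, antibiotics and stem cell factor (SCF) as the culture. The other 14 libraries came from primary monocytes that had been sorted from mouse bone marrow by flow cytometry. There were 2 per group, for the classical, intermediate and nonclassical subsets and for the classes labelled 1 to 4. Genotype, age, the sorting gates and the way the monocytic state was reached were not given in the labels used here, nor whether 2 libraries of a group came from separate animals, so the tests gauge only how much these libraries vary.

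Most ribosomal proteins are needed in equal numbers in each ribosome, and their messenger RNAs are among the most abundant in growing cells. Most of these messages start with a run of pyrimidines, the terminal oligopyrimidine (TOP) motif, through which TOR signalling and the protein Larp1 control their translation. Blood formation is sensitive to their supply: loss of 1 copy of RPS19 or RPS26 causes Diamond-Blackfan anaemia, and the 5S particle of Rpl5 and Rpl11 binds Mdm2, the inhibitor of p53, when ribosome assembly fails.

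The annotated start sites were examined for the pyrimidine run by which these messages are known as a class. Promoters were found in the RefSeq table of build GRCm38.p6 for 56 of the 75 genes, 67 promoters in all. Windows of 30 bases, from 10 bases before the start site to 20 from it on, are printed for 4 genes that hold a run of at least 8 pyrimidines and for 3 that do not, with the longest run of C and T in capitals.
Rps6: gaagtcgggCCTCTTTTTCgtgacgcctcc
Rpl15: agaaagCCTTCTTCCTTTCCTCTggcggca
Rpl38: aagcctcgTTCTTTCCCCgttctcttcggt
Rps27: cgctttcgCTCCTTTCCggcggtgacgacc
Rpl36a: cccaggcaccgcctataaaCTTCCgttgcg
Rps27l: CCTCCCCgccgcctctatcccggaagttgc
Rpl5: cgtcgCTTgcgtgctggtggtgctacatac
These windows lie at chr4:86857348-86857377 (minus strand) for Rps6, chr14:18270967-18270996 (minus) for Rpl15, chr11:114668570-114668599 (plus) for Rpl38 and chr3:90213629-90213658 (minus) for Rps27. Those of Rpl36a, Rps27l and Rpl5 lie at chrX:134585644-134585673, chr9:66946076-66946105 and chr5:107900518-107900547, all on the plus strand. A run of at least 8 pyrimidines was present in this window of 34.3% of the 67 ribosomal protein promoters and of 11.2% of all 32851 promoters of the table. In the 300 bases of the full promoter, on either strand, CCGGAAG, the core of the ETS factor site, was found in 37.3% against 8.86% of all promoters. AAGATGGC, the core of the YY1 site, was found in 10.4% (7 promoters of 5 genes) against 2.75%. CACGTG, the E-box of Myc, was found in 11.9% (8 promoters of 6 genes) against 7.15%, and TATAAA in 8.96% (6 promoters of 6 genes) against 13.6%. The windows of Rps6 and Rps27 hold pyrimidine runs of 10 and 9 bases, whereas that of Rps27l, a paralogue of Rps27 that p53 induces, holds a longest run of 7. These are matches of letters and not measured sites.

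The count of such a gene depends on whether its reads can be told from those of its processed pseudogenes, and the coding starts of Rps27 and its relatives show how close the copies are. The first 60 coding bases of Rps27, of the pseudogene Gm17241 and of Rps27l are printed, with the bases that differ from Rps27 in capitals.
Rps27: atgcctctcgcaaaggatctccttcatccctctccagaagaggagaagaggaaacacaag
Gm17241: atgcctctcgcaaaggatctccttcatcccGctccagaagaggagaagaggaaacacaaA
Rps27l: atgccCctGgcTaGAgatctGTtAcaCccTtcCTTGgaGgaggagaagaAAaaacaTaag
They come from the GENCODE transcripts of build GRCm38, where Rps27 spans chr3:90212522-90213651, the intronless copy Gm17241 chr15:99706562-99706813 and Rps27l chr9:66946086-66949516. Over 252 coding bases the pseudogene differed from Rps27 at 2 positions and Rps27l at 60, an identity of 99.2% and 76.2%. Each coding sequence was cut into windows of 50 bases, and the share of windows that occurred in no transcript of another gene was taken as its unique share. It was 0 for 26 of the 75 genes, above 0 and up to 20% for 29 and above 20% for 20. Rps27 shared windows with 9 other genes and had no unique one, and Rps27l was 51.0% unique.

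Levels in the clones were far lower for genes without unique windows than for the others, and less so in the primary monocytes. On total-count CPM per kb of coding sequence, the 26 genes with no unique window had a median of 32.9 over the 48 clone libraries and the 20 genes above 20% a median of 1514. In the 14 primary libraries the same groups had medians of 207 and 398. Rps27 shows the extreme: it lay between 0 and 0.680 total-count CPM in the clones, with a median of 0, and between 70.1 and 280 CPM in the primary libraries. Rps12, also without a unique window, lay between 0 and 1.22 CPM in the clones and between 29.1 and 131 CPM in the primary libraries. Rps3, 92.0% unique, went the other way, from 506 to 9131 CPM in the clones (median 2451) to 315 to 469 CPM in the primary libraries (median 402). For 17 of the 75 genes every primary library lay above every clone library, against 2.42% of the 9189 genes with a mean of at least 10 CPM, and Rps3 alone had every primary library below, against 2.79%. Of the 17 genes 14 had no unique window, and Rpl36, Rpsa and Rps13 had a unique share of at most 2%. For 11 genes, Rps6, Rps27 and Rps12 among them, the mean in the clones was under 10 CPM, so that the primary libraries carried them over the level required above; 10 of these 11 are among the 17, and for them the direction follows in part from that requirement. The read length and the handling of reads with several matches are not given in the sources used here, nor is whether clones and primary cells were sequenced and counted alike, so cell type and any such difference cannot be told apart. Rpl41, with a coding sequence of only 78 bases, was the exception at the top, with no unique coding window and 5235 total-count CPM per coding kb in the clones. Because of these limits, levels are not compared between genes, nor between clones and primary cells, in what follows.

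**Figure D1:**
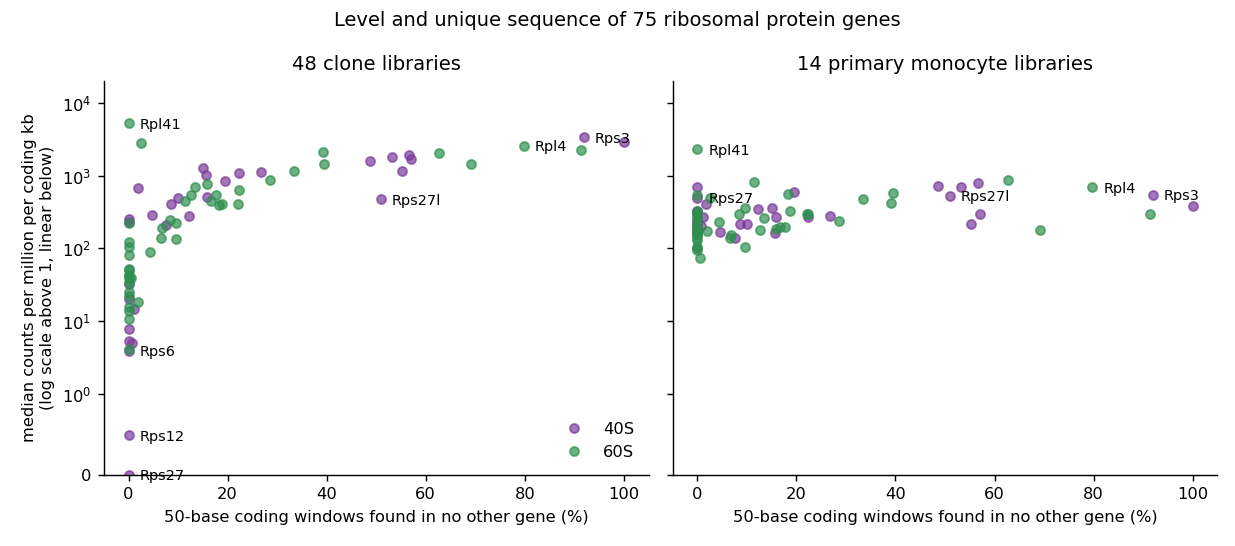
Median level per coding kb (total-count CPM, log scale above 1) of each of 75 ribosomal protein genes against the share of its 50-base coding windows found in no other gene, in 48 clone libraries (left) and 14 primary monocyte libraries (right). In the clones genes without a unique window lie mostly far below the others, down to Rps27 at 0; in the primary libraries all lie between 73.6 and 2295.

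The progenitor libraries held between 0.362 M and 47.3 M counts (M for mega). The monocytic ones held 1.83 M to 34.5 M, with a median of 26 M for clones 1 to 13 and of 3.18 M for clones 15 to 25, and the primary ones 21.2 M to 35 M. The 2 clone sets were therefore also fitted apart. The progenitor library of clone 21 was the shallowest, and that of clone 24 stood apart in its ribosomal protein share, as given next.

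The 75 genes together took a smaller share of all counts in the monocytic state. In the progenitors they held between 2.35% and 10.9% of the counts with a median of 3.55%, and in the monocytic cells between 0.490% and 3.25% with a median of 1.69% (n = 24 each). The monocytic library was lower in 23 of 24 clones, and in clone 22 it was higher, at 3.04% against 2.35%. The mean difference was −2.62 percentage points (SD 2.11, n = 24), and −2.65 (SD 2.36) when the 50 other genes with the highest levels were left out of the totals. In clones 1 to 13 all 13 pairs were lower, with progenitors at a median of 5.15%. In clones 15 to 25, 10 of 11 were lower, with progenitors at a median of 2.90%; clone 24 reached 10.9%, while the next highest was 3.54%. The lowest monocytic shares were those of clones 20 and 21, at 0.490% and 0.566%. In bulk libraries fewer cells of a type and less RNA per cell cannot be told apart. All 6 neutrophil markers (S100a8, S100a9, Ngp, Camp, Ltf and Cxcr2) also rose in the monocytic state, their summed level going from a median of 13.7 CPM (1.39 to 8095) to one of 61100 CPM (252 to 198100), and their part in the share of ribosomal protein counts was not tested. The 3 progenitor markers Cd34, Kit and Flt3 summed to 1469 to 3994 CPM in the progenitors and 54.4 to 399 CPM in the monocytic cells, and the 5 monocyte markers to 516 to 2778 and 4588 to 60310 CPM. Of the monocyte markers Csf1r, Ly6c2, Cx3cr1 and Lyz2 were called higher in the monocytic state, and Ccr2 was called lower (log2 change −1.08, SE 0.235).

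**Figure D2:**
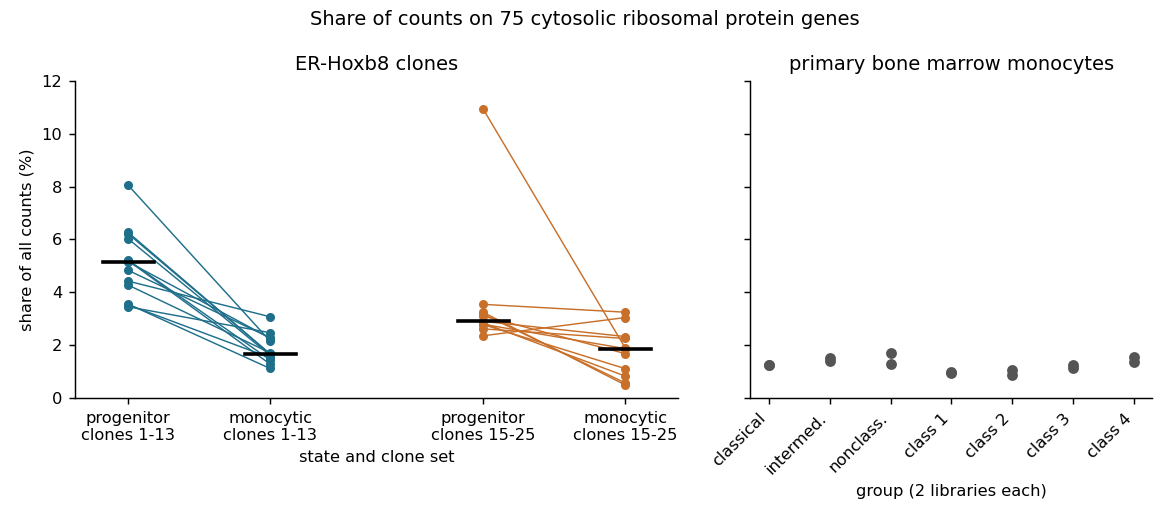
Share of all counts on the 75 genes (y axis, %). Left, the 2 libraries of each clone joined by a line, clones 1 to 13 and 15 to 25 apart, with black bars at the medians; right, the primary groups with 2 libraries each. The line falls in 23 of 24 clones, and the primary libraries lie between 0.849% and 1.71%. Clone and primary shares are not compared with each other.

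Gene by gene, the fall between the states was broad. Of the 75 genes 73 passed the filter on low counts (Rps12 and Rps27 did not), 66 fell and none rose (edgeR quasi-likelihood test with the clone as a block, adjusted p under 0.05), and DESeq2 called 67 lower and none higher. Of all 11614 genes tested 40.1% fell and 38.5% rose, 78.6% in all. The median log2 change of the 73 was −0.86, a level 1.82-fold lower, while the median of all genes was −0.02. Under scaling by total counts alone the median of all genes moved to −0.45 and that of the 73 to −1.30, with all 73 called lower. Direction was seldom shared by all clones. The median gene of the 75 was lower in 19 of 24 pairs, and 7 were lower in every pair, near the 10.4% of all genes lower in every pair. Levels below are CPM scaled by the trimmed mean of M-values (TMM).

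The 5 largest falls passing the test were those of Rpl21, Rpl36a, Rpl3, Rpl27 and Rps6. Rpl21, a 60S protein, had levels of 13.1 to 66.5 CPM with a median of 20.4 in the progenitors and 0.768 to 13.1 with a median of 4.45 in the monocytic cells. It fell by 2.35 on the log2 scale (SE 0.207, adjusted p = 5.22e-11), a 5.08-fold lower level and lower in 24 of 24 pairs, though the highest monocytic library just reached the lowest progenitor one. Rpl36a, an X-linked 60S gene, lay at 11 to 24.6 CPM (median 15.7) in the progenitors and at 0.450 to 10.6 CPM (median 4.07) in the monocytic cells. It fell by 2.05 (SE 0.186, adjusted p = 9.50e-11), and it was the only 1 of the 75 whose states did not overlap, against 2.45% of all genes lower with no overlap. Rpl3, which lies near the peptidyl transferase centre, fell by 1.63 (SE 0.176) from a median of 193 CPM (84.7 to 404) to one of 64.7 (8.07 to 120). Rpl27 fell by 1.44 (SE 0.148), from a median of 29.6 to one of 11.2 CPM. Rps6, the substrate of S6 kinase, fell by 1.43 (SE 0.183), but at medians of only 3.41 and 1.19 CPM. Of these 5 genes Rpl3 has a unique share of 4.30% and the others have no unique window.

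Genes with more unique sequence were called as well. All 20 genes with a unique share above 20% fell, with a median of −0.83 and a range from −1.33 to −0.43. Of the 24 tested genes with no unique window 20 fell, with a median of −1.07, and of the 29 in between 26 fell, with a median of −0.78. Rpl4, a 60S protein lining the exit tunnel and 79.8% unique, stood at 2719 to 10860 CPM (median 3766) in the progenitors and 628 to 2727 CPM (median 1699) in the monocytic cells. It fell by 1.33 (SE 0.135, adjusted p = 7.00e-10) and was lower in every pair, with an overlap only at the ends of the ranges. The genes lower in every pair, a share near that among all genes, included Rpl4, Rpl11, Rpl15, Rpl21, Rpl28 and Rpl36a. Rps3, at the entry of the messenger RNA and 92.0% unique, fell by 0.81 (SE 0.174), and Rpl8, 91.3% unique, by 0.76 (SE 0.165). Of these 20 genes the smallest fall was that of Rps9, by 0.43 (SE 0.156, adjusted p = 0.0151), from a median of 1267 to one of 999 CPM.

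By role, the 3 proteins of the ribosomal stalk, which recruits the elongation factors, fell by less than the median or close to it. Rplp0 fell by 0.74 (SE 0.162), from a median of 1707 to one of 1200 CPM, Rplp1 by 0.89 (SE 0.207) and Rplp2 by 0.54 (SE 0.182, adjusted p = 0.00857). The partners of the 5S RNA fell by more: Rpl5 by 1.38 (SE 0.214), from a median of 19.2 to one of 5.38 CPM, and Rpl11 by 1.24 (SE 0.171), in 24 of 24 pairs. Rpl5 and Rpl11 have no unique window, and the mean of Rpl11 in the clones was under 10 CPM. The 3 stalk genes are 33.4% to 39.6% unique. The part of unique share and level in this contrast was not tested. Among the anaemia genes Rps26 fell by 1.05 (SE 0.185) and Rps19 by 0.51 (SE 0.192, adjusted p = 0.0173). Rps19 lay at 208 to 1643 CPM (median 363) in the progenitors and at 63.9 to 617 (median 306) in the monocytic cells, lower in 17 of 24 pairs.

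Rpsa, also known as a laminin receptor, fell by 0.99 (SE 0.240), and Rps4x, the X-linked form of Rps4, by 0.92 (SE 0.147). Rpl22, a 60S protein needed for lymphocyte development, fell by 1.29 (SE 0.179), from a median of 716 to one of 347 CPM. Rpl38, known from a mouse skeletal mutant, fell by 0.84 (SE 0.181). Of the 2 smallest proteins of the 60S subunit, Rpl39 fell by 1.08 (SE 0.213) and Rpl41 by 0.84 (SE 0.172). Rps27l fell by 0.78 (SE 0.157, adjusted p = 5.79e-05), with 77.7 to 395 CPM (median 136) in the progenitors and 28.3 to 166 CPM (median 97.3) in the monocytic cells, while its paralogue Rps27 had medians of 0.0849 and 0 CPM and was not tested.

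The 7 tested genes that did not pass were Rps13 (−0.45), Rps28 (−0.39), Rps16 (−0.33), Rps10 (−0.22), Rpl9 (−0.22), Rpl37a (−0.13) and Rpl10 (0.02). Of these 4 are 40S genes, and none has a unique share above 18.3%. Both subunits shared the fall, with 25 of 29 tested 40S genes and 41 of 44 60S genes called lower and medians of −0.86 and −0.855. The counts on 40S genes relative to those on 60S genes nevertheless moved, from a mean ratio of 0.832 (SD 0.059) in the progenitors to 0.930 (SD 0.0844) in the monocytic cells, higher in 22 of 24 clones. It was higher in 12 of 13 pairs of clones 1 to 13 and in 10 of 11 pairs of clones 15 to 25. The ratio weighs genes by their counts.

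**Figure D3:**
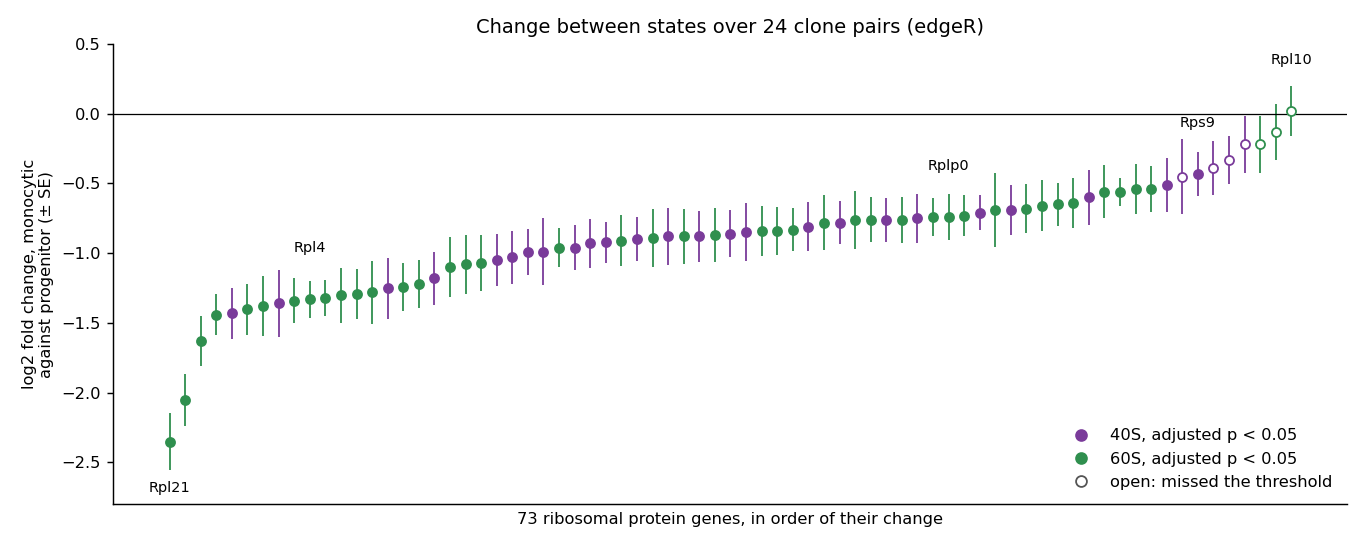
Log2 change of monocytic against progenitor libraries (y axis, ± SE, 24 clone pairs) for 73 tested genes in order of their change; purple 40S, green 60S, open circles missed the adjusted threshold. All filled points lie below 0, from −2.35 for Rpl21 to −0.43 for Rps9, and Rpl10 lies at 0.02.

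Fitted apart, clones 1 to 13 gave 66 genes lower and 1 higher of 73 (39.3% of all genes were lower and 40.9% higher, 80.2% in all), with a median of −0.95. Clones 15 to 25 gave 29 lower and none higher (29.9% of all genes were lower and 29.1% higher, 59.0% in all), with a median of −0.70; without clone 21, or without clone 24, 23 were lower. Scaled by total counts, 62 were lower in clones 15 to 25, where the median over all genes was then −0.46. In both sets 26 genes were called in the same direction. The share of all genes called so in both sets was not computed, so this count is not read as a trait of these genes. Of the 20 genes with a unique share above 20%, all fell in clones 1 to 13 (median −0.90) and 5 in clones 15 to 25 (median −0.585), among them Rpl4 with −1.43 and −1.15. Tested directly, the change differed between the sets for 4 of 73 genes, 3 with a lower and 1 with a higher change in clones 15 to 25, against 17.3% and 6.44% of all genes. This count rose to 8 without clone 21 (5 with a higher and 3 with a lower change) and to 9 without clone 24 (6 and 3). DESeq2 gave 9 (6 and 3). Called or not, 61 of the 73 differences lay above 0 and 12 below, with a median of 0.23 beside −0.11 over all genes. None of the 4 has a unique share above 0.498%.

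Rpl10, an X-linked 60S protein at the site where the subunits join, had opposite changes in the sets. In clones 1 to 13 it lay at 11.9 to 28.6 CPM (median 18.6) in the progenitors and at 19 to 48.2 CPM (median 30.6) in the monocytic cells, higher in 13 of 13 pairs. It rose by 0.70 there (SE 0.121, adjusted p = 5.89e-05), and under scaling by total counts by 0.21, which missed the test (edgeR adjusted p = 0.0893). In clones 15 to 25 it lay at 38.9 to 73.7 CPM (median 57.0) and 15.4 to 57.6 CPM (median 33.6), and it fell by 0.79 (SE 0.174, adjusted p = 0.00131). The difference was −1.52 (SE 0.207, adjusted p = 2.14e-05), and it sat in the progenitors, whose ranges in the 2 sets did not overlap, while the monocytic ranges did.

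Rpl10a and Rpl9, both 60S proteins, had the same arrangement. Rpl10a had progenitor levels of 13.6 to 32.3 CPM in clones 1 to 13 and 34.3 to 127 CPM in clones 15 to 25, and monocytic medians of 21.8 and 32.1 CPM. Its log2 change was 0.10 (SE 0.160, not called) in the first set, or −0.39 under scaling by total counts (adjusted p = 0.0293), and it fell by 1.70 (SE 0.366) in the second; the difference was −1.81 (SE 0.394, adjusted p = 0.00192). Rpl9 had progenitor levels of 3.54 to 14.7 CPM and 15.2 to 46.8 CPM in the 2 sets, with a difference of −1.23 (SE 0.334, adjusted p = 0.00926). Rps29, a small zinc-binding 40S protein, went the other way: it fell by 1.71 (SE 0.192) in clones 1 to 13 and its change of −0.42 (SE 0.330) in clones 15 to 25 was not called, a difference of 1.26 (SE 0.367, adjusted p = 0.0145). Its levels were under 8 CPM in every clone library.

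**Figure D4:**
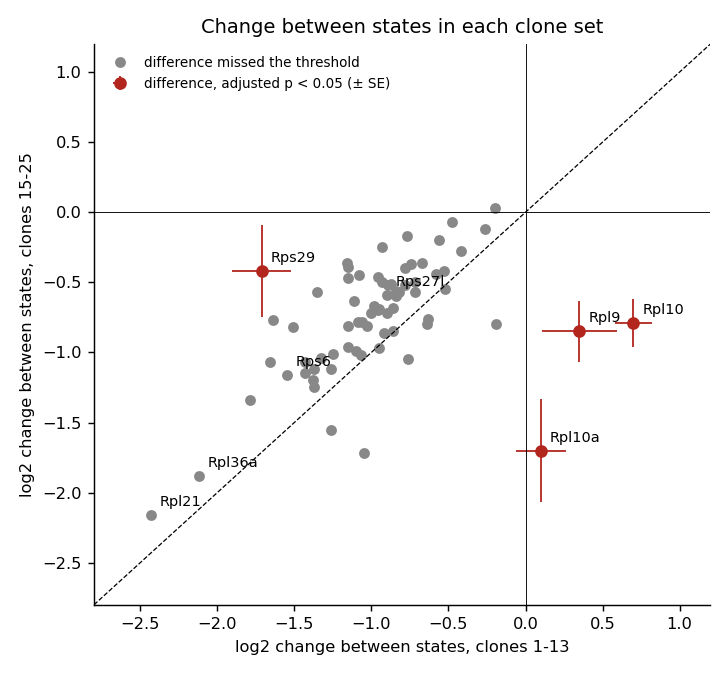
Log2 change between the states in clones 15 to 25 (y axis) against clones 1 to 13 (x axis) for 73 genes; the dashed line marks equal change, and red points with ± SE are the 4 whose difference between sets passed the test. Rpl10, Rpl10a and Rpl9 lie right of 0 and low, and Rps29 lies above the line.

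Differences between clones beyond the state were called for 4 of 73 genes (edgeR F test of the clone terms), against 11.7% of all genes; 13 had an unadjusted p under 0.05, beside 3161 of all 11614 genes. The 4 were Rpl7a (adjusted p = 0.0112), Rps7 (adjusted p = 0.0181), Rpl41 (adjusted p = 0.0181) and Rps14 (adjusted p = 0.0266), a 40S protein whose loss in a human myeloid disease causes anaemia. Rps14 lay between 480 CPM (clone 22) and 3502 CPM (clone 9) in the progenitors and between 231 CPM (clone 20) and 1695 CPM (clone 8) in the monocytic cells. Rps7 ran from 101 to 770 CPM (highest in clone 24) and from 36.0 to 361 CPM (highest in clone 4). Within clones 1 to 13, and within clones 15 to 25, edgeR called none of the 73, with 3 at an unadjusted p under 0.05 in each, against 0.299% and 3.76% of all genes; DESeq2 called 2 and 3, beside 3.93% and 18.5% of all genes. Over all clones DESeq2 called 21, beside 35.5% of all genes, and scaling by total counts left 1, Rps7.

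Part of the spread over the clone libraries was common to the 75 genes. On log2(CPM + 1), a gene's SD over the 24 progenitor libraries had a median of 0.685, and after the mean of all 75 genes in each library was subtracted the median was 0.303, smaller for 63 of 75 genes. In the monocytic cells the medians were 0.659 and 0.325, smaller for 70 genes. The subtracted mean itself had an SD of 0.510 over the progenitor libraries and 0.554 over the monocytic ones; it was lower in the monocytic library of 20 clones and higher in clones 8, 19, 22 and 23. The highest progenitor mean was that of clone 24, at 8.39. Within clones 1 to 13 the median SD went from 0.393 to 0.17 in the progenitors and from 0.407 to 0.231 in the monocytic cells. Within clones 15 to 25 it went from 0.737 to 0.268 and from 0.781 to 0.326. The mean came from these same genes, and no other genes were set beside them. These values describe the libraries and were not tested, and genes near 0 CPM vary little on this scale.

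Other genes of the translation machinery mostly fell as well, on lists that were chosen with earlier results of these data known. Of all 11614 genes tested 40.1% fell and 38.5% rose, with a median of −0.02. Of 6 ribosome components outside the naming pattern 4 fell, among them Rack1, a scaffold on the 40S head (−1.07, SE 0.171), Rpl22l1, the paralogue of Rpl22 (−1.02, SE 0.229) and Rpl36al (−0.78); Fau was at 0.09 and Rpl7l1 at 0.12. Of 18 elongation factors and other TOP messages 17 fell, with Eef1g at −1.72 (SE 0.174), Hnrnpa1 at −1.68 and Nap1l1 at −1.67, and Tpt1 rose by 0.40 (SE 0.123, adjusted p = 0.00436). Of 21 initiation factors 17 fell, led by Eif3i (−1.27, SE 0.168), Eif3j1 (−1.24) and Eif3g (−1.23), and Eif4g1, the scaffold of the cap complex, was at −0.01. The medians of these 3 lists were −0.70, −0.91 and −0.70.

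Most genes that build ribosomes fell as well, beside 40.1% of all 11614 genes that fell and 38.5% that rose. Of 16 nucleolar biogenesis genes 15 fell with a median of −2.10, led by the pseudouridine synthase Dkc1 (−3.13, SE 0.182), Nop58 (−2.68) and Wdr12 (−2.47), and Polr1a, the large subunit of RNA polymerase I, was at −0.15. Of 18 maturation and assembly factors 17 fell with a median of −1.19, among them Tsr2, a chaperone of Rps26 (−2.04, SE 0.176), Grwd1 (−1.91) and the nuclease Nob1 (−1.79); Sbds was at −0.02. All 4 snoRNA host genes measured fell, with Snhg1 and Snhg5 at −2.26 and Gas5 at −1.98, all 3 TOP transcripts. Of 77 mitochondrial ribosomal proteins 56 fell and 2 rose, with a median of −0.62. In the TOR list 4 rose and 5 fell of 12, both near the shares of all genes. Mlst8 was at 1.56 (SE 0.203), Eif4ebp1 at −0.84 and Larp1 at −0.51, while Eif4ebp2 was at 0.37 and missed the test. Of 13 tested p53 targets 8 rose and 4 fell with a median of 1.01, among them Plk2 (5.17), Btg2 (3.88) and Zmat3 (2.01), and Gdf15 was at 0.31.

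Among primary subsets, classical monocytes move to sites of inflammation, nonclassical ones patrol vessel walls, and intermediate ones lie between. The 75 genes held 1.23% and 1.26% of the counts in the 2 classical libraries, 1.41% and 1.51% in the intermediate and 1.28% and 1.71% in the nonclassical ones, so the nonclassical libraries lay above the classical ones and on either side of the intermediate ones. No gene of the 75 was called in any of the 3 comparisons by edgeR, against 5.82%, 2.11% and 0.0% of all 13944 genes for nonclassical against classical (2.91% higher), intermediate against classical and nonclassical against intermediate. At an unadjusted p under 0.05 the counts were 20, all higher, then 10, of which 9 were higher, and 1, beside 3260, 3018 and 1710 of all 13944 genes. DESeq2 called 20, 7 and 0, beside 24.1%, 22.3% and 8.69% of all genes. The medians were 0.32, 0.22 and 0.10, beside 0.11, 0.12 and −0.05 over all genes. The 2 nonclassical libraries lay above both classical ones for 43 genes and below for 8, against 27.8% and 32.0% of all genes. Both intermediate libraries lay above both classical ones for 45 and below for 9 (31.5% and 31.8%), and for nonclassical against intermediate these counts were 10 and 7 (19.6% and 17.6%). With the second nonclassical library left out the median fell from 0.32 to 0.10, and with the first left out 2 genes were called.

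The largest changes each way, none past the test, were these. Rpl13a, known for its role in silencing inflammatory messages, lay at 270 and 282 CPM in the classical libraries, 424 and 411 in the intermediate and 499 and 911 in the nonclassical ones, a log2 difference of 1.35 for nonclassical against classical (SE 0.313, adjusted p = 0.0813). The 2 nonclassical libraries differ by more than the classical and intermediate groups do. Rps28 was the lowest in that comparison, at 58.7 and 51.1 CPM in classical and 31.9 and 38.4 in nonclassical libraries (−0.64, SE 0.321, adjusted p = 0.289). Rps27l had 130 and 123 CPM in the classical libraries, but 391 and 128 in the intermediate and 255 and 87.9 in the nonclassical ones. Its difference of 1.04 for intermediate against classical (SE 0.708, adjusted p = 0.418) rests on the first intermediate library. For nonclassical against intermediate it was −0.60. Rps15a was lower in both intermediate libraries, at 61.6 and 56.2 CPM against 88.4 and 82.0 (−0.53, SE 0.172, adjusted p = 0.173). Rps27 stood at 138 and 109 CPM in the classical, 148 and 123 in the intermediate and 190 and 288 in the nonclassical libraries (0.82 for nonclassical against intermediate, SE 0.276, adjusted p = 0.348). All 6 B cell markers were higher in the nonclassical and in the intermediate libraries, with sums of 28.2 and 29.3 CPM in the classical, 363 and 406 in the intermediate and 1582 and 1959 CPM in the nonclassical libraries. The neutrophil markers summed to 529.9 and 905 CPM in the classical, 4487 and 5036 in the intermediate and 283 and 1512 in the nonclassical libraries, and the erythroid markers to 3.45 and 5.99, 51.6 and 383, and 127 and 130.4 CPM. The progenitor markers summed to 38.2 and 42.4, 246 and 286, and 97.5 and 109.7 CPM in the same order, and Kit and Flt3 were called higher than in the classical libraries in both other groups. The part of these markers' cells in the values was not tested.

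Of the 4 labelled classes, class 4 had the highest ribosomal protein levels. The 75 genes held 0.948% and 0.975% of the counts in class 1, 1.06% and 0.849% in class 2, 1.12% and 1.26% in class 3 and 1.37% and 1.54% in class 4, and the 2 class 4 libraries lay above all 6 others. In class 4 against class 1, 23 genes were higher and 1 lower (10.2% and 15% of all 13686 genes), with a median of 0.41 beside 0.02 over all genes. In class 4 against class 2, 27 were higher and 1 lower (19.5% and 21.4% of all genes, median 0.36), and in class 4 against class 3, 10 were higher and none lower (13% and 15.7%, median 0.28). Both class 4 libraries lay above both class 1 libraries for 62 genes and below for 2, against 30.5% and 31.6% of all genes. Against class 2 these counts were 44 and 4 (34.2% and 35.9% of all genes), and against class 3 they were 44 and 4 (31.3% and 34.0%). The comparisons share the class 4 libraries, and 20 genes were higher in the first 2 and 9 in all 3. The share of all genes higher in several of them was not computed, so these joint counts are not read as particular to the 75. The 9 included Rps12, Rps15, Rps24, Rpl12, Rpl13a, Rpl17, Rpl23 and Rpl38, with unique shares from 0 to 57.1%. Both subunits took part, with 8 of 31 genes of the 40S and 15 of 44 of the 60S higher than in class 1, and 11 and 16 higher than in class 2. Of the 20 genes with a unique share above 20%, 8 were higher than in class 1, 10 than in class 2 and 2 than in class 3. The counts depended on single libraries. For class 4 against class 1 the count of genes called was 2 without the first class 1 library, 6 without the second and 15 without the second class 4 library. For class 4 against class 2 it was 7 without the second class 2 library and 14 without the second class 4 library. For class 4 against class 3 it was 0 without the first class 3 library (edgeR; 6 at an unadjusted p under 0.05), 2 without the second, 17 without the first class 4 library and 3 without the second. Under scaling by total counts the 3 counts were 51, 53 and 12, with the median of all genes moved to 0.24, 0.32 and 0.06.

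Rps12, a 40S protein, had the largest change between class 4 and class 1, with 88.5 and 121 CPM there. It lay at 31.3 and 34.0 CPM in class 1, 57.3 and 34.2 in class 2 and 42.2 and 58.9 in class 3, so that class 4 lay above all others. It was higher by 1.68 against class 1 (SE 0.290, adjusted p = 0.00518), 1.19 against class 2 (SE 0.286) and 1.05 against class 3 (SE 0.285, adjusted p = 0.0285). Rpl12, of the stalk base, had 113 and 129 CPM in class 4, against 44.0 and 49.1 in class 1, 45.2 and 34.8 in class 2 and 61.0 and 71.4 in class 3. It was higher by 1.38 against class 1 (SE 0.182, adjusted p = 0.00173) and by 1.59 against class 2 (SE 0.184, adjusted p = 3.76e-04). Rpl38 lay at 64.0 and 80.3 CPM in class 4 and between 26.2 and 42.1 CPM in the 6 other libraries, higher by 1.27 against class 1 (SE 0.244) and 0.94 against class 3 (SE 0.241). Rps15, 57.1% unique, lay at 167 and 213 CPM in class 4 and between 77.9 and 127 CPM in the 6 other libraries, and was higher by 0.89 against class 1, 0.99 against class 2 and 0.65 against class 3; it was chosen for its unique share after its values were seen. Rps24 was higher by 0.93 against class 3 (SE 0.223). Rpl10 was the only 1 of the 75 called lower, at 155 and 150 CPM in class 4, 221 and 205 in class 1 and 248 and 228 in class 2. It was lower by −0.49 against class 1 (SE 0.121, adjusted p = 0.0228), or −0.25 under total counts (adjusted p = 0.164), and by −0.64 against class 2 (SE 0.121), or −0.35 under total counts (adjusted p = 0.0565).

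The class 4 libraries also stood apart in markers of other cell types. All 6 neutrophil, all 6 erythroid and all 6 B cell markers were higher there than in class 1 and in class 2, and all 5 monocyte markers were lower. The neutrophil markers summed to 42430 and 59530 CPM in class 4 and to 196 to 733 CPM in class 1, the erythroid markers to 3049 and 3909 against 40.1 and 90.8 CPM, and the B cell markers to 1861 and 2288 against 290 and 324 CPM. The monocyte markers summed to 14960 and 15030 CPM in class 4 and 47690 and 51420 CPM in class 1. The T and NK cell markers summed to 253 and 299.9 CPM in class 4, to 30.1 and 47.96 CPM in class 1 and to 0.827 and 1.76 CPM in class 2, with 1 of 6 higher than in class 1 and all 6 higher than in class 2. Of the 3 progenitor markers, Kit (2.62) and Cd34 were higher than in class 1 and Flt3 (−1.43) was lower, in the same directions as against class 2; their sums were 85.4 and 114 CPM in class 4 and 56.9 and 80.6 CPM in class 1. The part of other cells in the class 4 levels of ribosomal protein genes was not tested. With class 1 as the reference, 10.2% of all 13686 genes were higher in class 4 and 15% lower. Of 16 nucleolar biogenesis genes 8 were higher and none lower (Wdr12 by 1.41, Dkc1 by 1.25, Gnl3 by 1.17). Of 18 elongation factors and other TOP messages 5 were higher (Eef1g by 0.87). So were 3 of 4 snoRNA host genes, among them Snhg5 by 1.68 and Gas5 by 0.97. Snhg12 was higher by 2.18 (SE 0.561), but at a low level, with a mean log2 CPM of 1.58. Also higher were 5 of 21 initiation factors, 2 of 18 maturation and assembly factors (Rrs1 by 1.25, Nmd3 by 0.60) and 1 of 6 ribosome components named outside the pattern (Rack1 by 0.60), with none lower. Of 12 TOR pathway genes 1 was higher and 2 were lower, and of 77 mitochondrial ribosomal protein genes 10 were higher and 1 lower. For maturation factors, components outside the pattern, TOR genes and mitochondrial genes, the counts of higher genes lay near the 10.2% of all genes.

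Between the other classes little was called. In class 2 against class 1 edgeR called none of the 75 (3.34% of all genes were higher and 5.95% lower, 9.29% in all; 3 at an unadjusted p under 0.05, and DESeq2 called 1), with a median of 0.09. The extremes were Rps28 at 0.60 (SE 0.305, adjusted p = 0.274) and Rpl14 at −0.38 (SE 0.133, adjusted p = 0.121). In class 3 against class 1 it also called none (5.44% of all genes were higher and 7.94% lower, 13.4% in all; 6 at an unadjusted p under 0.05, and DESeq2 called 3), with Rpl39 at 0.64 (SE 0.251, adjusted p = 0.140) and Rps27 at −0.50 (SE 0.153, adjusted p = 0.0700). Both class 3 libraries lay above both class 1 libraries for 50 genes and below for 4, against 32.1% and 30.9% of all genes. In class 3 against class 2, 5 were higher and 1 lower (11.8% and 12.4% of all genes), with a median of 0.11. The higher ones included Rpl12 (0.73, SE 0.181) and Rpl14 (0.64, SE 0.133). The lower one was Rps27, at 67.1 and 79.1 CPM in class 3 and 147 and 125 CPM in class 2 (−0.90, SE 0.154, adjusted p = 0.00397). This count was 3, all lower, without the second class 2 library, 2 without the first class 3 library and 1 without the second. Scaled by total counts it was 21, of which 20 were higher, and with DESeq2 11. The neutrophil markers summed to 5521 and 9334 CPM in class 3 and to 244 and 557 CPM in class 2, and the monocyte markers to 19010 and 22500 against 60960 and 63890 CPM; their part in this count was not tested.

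**Figure D5:**
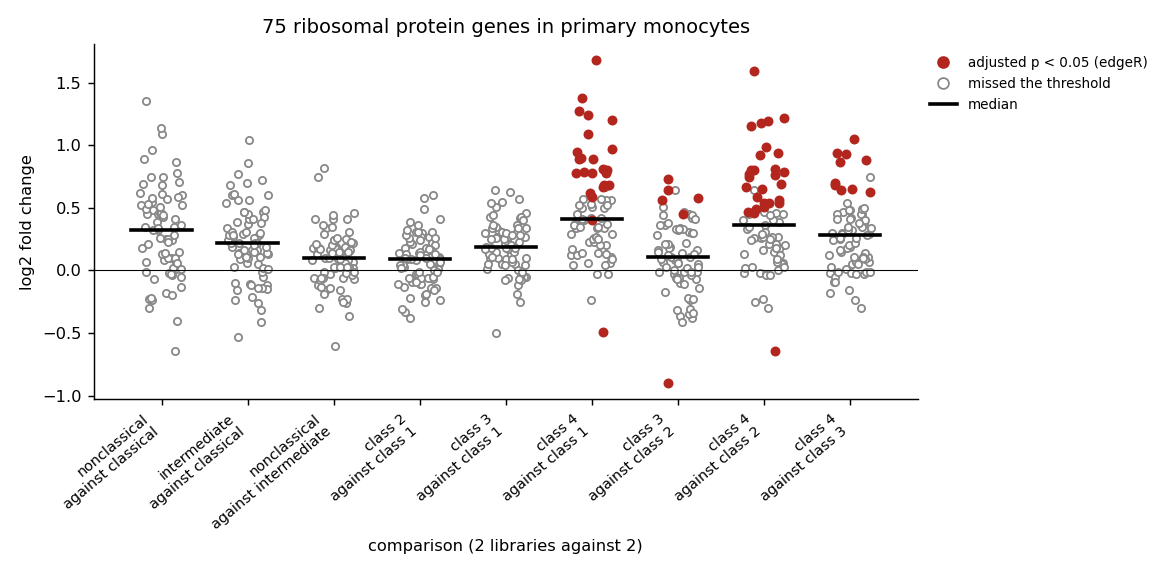
Log2 change (y axis) of the 75 genes in 9 comparisons of primary monocytes, 2 libraries against 2; red points passed the adjusted threshold, open points did not, and black bars are medians. Red points appear in the 3 comparisons of class 4 and in class 3 against class 2, with Rpl10 and Rps27 as the only ones below 0.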

How the data were processed

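Build mm9 and the tools HTSeq 0.6.0 and STAR 2.7.3a are named in the submitters' processing notes. The deposited values are raw counts per gene, without any normalization by the authors; the annotation, the strand setting and the treatment of reads with several matches are not given in the sources used here. The labels give RNeasy extraction and NEB library kits. One column of the table has no sample in the labels (n = 1) and was not used. Of the Ensembl identifiers 32897 found a symbol in the reference name table.

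Counts were tested with edgeR 4.0.16 (R 4.3.3): TMM factors, edgeR's filter at a minimum count of 10, quasi-likelihood F tests over all genes and Benjamini-Hochberg adjustment at 0.05. States were fitted with the clone, which both libraries share by label, as a block; subsets and classes in a fit each. DESeq2 1.42.0, other scalings, no filter and left-out libraries were the alternatives. The code was tested on simulated data. Standard errors are the log2 change over the root of F.

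The genes, lists and markers were chosen with earlier results of these data known. Named genes are the largest changes past the threshold (5 each way for the states, 3 for primary comparisons, otherwise the extremes), a fixed set of known roles, and per list the 3 largest calls with the most expressed gene not called. The setting of clone against primary levels was added after the values were seen, as were the fits without clone 24. Counting intervals are not given; total counts limit the precision. Some genes that the rule names are not reported here.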

Additional observations from a re-analysis of the deposited data

Results flagged for a closer look

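For 4 genes the change between the states differed between clones 1 to 13 and clones 15 to 25 in a test of the difference itself. The difference, clones 15 to 25 minus clones 1 to 13, was −1.52 for Rpl10, −1.81 for Rpl10a, −1.23 for Rpl9 and 1.26 for Rps29 on the log2 scale. All 4 have a unique share of at most 0.498% of their coding windows, and Rpl10 shares windows with 15 other genes.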

How the results depend on the processing

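Of the counts of genes called, 107 of 139 alternative values stayed within 1.5 times the value reported. Under scaling by total counts the clone effect fell to 1 gene, clones 15 to 25 rose to 62, class 3 against class 1 to 4, class 4 against class 1 to 51, class 3 against class 2 to 21 and class 4 against class 2 to 53. DESeq2 gave 21 for the clone effect, 2 and 3 within clones 1 to 13 and 15 to 25, 9 for the difference between sets, 20 for nonclassical and 7 for intermediate against classical, 1 and 3 for classes 2 and 3 against class 1, and 11 for class 3 against class 2. Without the filter classes 2 and 3 against class 1 gave 1 each. The difference between sets gave 8 without clone 21 and 9 without clone 24. With single libraries left out the ranges were 0 to 2 for nonclassical against classical, 2 to 35 for class 4 against class 1, 1 to 4 for class 3 against class 2, 7 to 32 for class 4 against class 2 and 0 to 17 for class 4 against class 3; the lone library left was taken to vary like the other groups. Rpl10a in clones 1 to 13 turned to −0.39 under total counts. The cause of these shifts was not tested. Without the clone block 68 genes fell between the states. In the primary fits, the replicate numbers of a comparison give only 2 pairs; deviations of same-numbered libraries correlated at 0.18 to 0.384 across subsets and −0.011 to 0.073 across classes. With the replicate block class 4 against classes 1, 2 and 3 gave 21, 24 and 8, class 3 against class 2 gave 5 and the others 0. The monocytic libraries of clones 15 to 25 are shallow, and the part of depth in their count was not tested; every count here covers reads that near-identical copies may share.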
